A study of Caenorhabditis elegans with 2 samples.

Results

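The dispersed U5 small nuclear RNA (snRNA) genes of Caenorhabditis elegans are 6 genes, F32B5.9, Y69A2AR.36, F42C5.12, C53B4.9, C53D6.12 and F07C6.5. They are set apart from the clustered U5 genes F38E11.10, F38E11.11, ZK897.2, ZK897.3 and ZK897.4, which share a clone name with at least 1 other U5 gene. The members were listed by name, and each carries the invariant loop sequence of U5 RNA. They are 6 of the 11 annotated snRNA genes that carry this loop sequence, here called the U5 genes. A copy with a changed loop would not be counted among the 11. They are also 6 of 99 annotated snRNA genes other than spliced leader genes, and of 46890 genes of the nuclear annotation. Of the 6, 5 lie on chromosome IV, as do all 5 clustered genes, and F32B5.9 lies on chromosome I. The study mapped the binding of SNPC-4 by chromatin immunoprecipitation and sequencing (ChIP-seq) in 1 group of 2 biological replicates. The animals were whole young adult hermaphrodites of the transgenic strain YL551, which carries SNPC-4 with GFP and FLAG at its C terminus, taken 60 hours after larvae were synchronised by starvation at the L1 stage. Chromatin was sonicated and precipitated with an antibody to GFP, and the values below come from the deposited ce11 peak lists. Every value is an average over the nuclei of all tissues of the animal, and the group has no untreated or mutant counterpart, so no test between conditions exists.

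SNPC-4 is the worm counterpart of the large Myb-domain subunit of SNAPc, the small nuclear RNA activating protein complex, which binds a proximal sequence element upstream of snRNA genes and recruits RNA polymerase to them. U5 RNA is a core component of the spliceosome. Its loop I contacts the ends of both exons while they are cut and joined, the protein PRP-8 holds it in the active site, and a ring of Sm proteins assembles on a uridine-rich Sm site near the 3′ end of the RNA. U5, like U1, U2 and U4, is transcribed by RNA polymerase II, whereas U6 is transcribed by RNA polymerase III.

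The dispersed genes encode nearly the same RNA behind different upstream sequence, by comparison of the RefSeq genes in the WBcel235 genome, the same assembly as ce11. Over 121 bases of the RNA, aligned with gaps allowed, the 15 pairs of dispersed genes were 88.4 to 97.5% identical, with a median of 92.6%. The RNA of F07C6.5 is identical to that of the clustered gene ZK897.2 over those bases.

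Upstream of the RNA the dispersed genes shared much less in a comparison without gaps. Unlike the alignment of the RNAs, it scores lower where the sequences of a pair are shifted against each other. Over the 100 bp before the common start the 15 pairs were 22 to 92% identical position by position, with a median of 36%, and only 1 pair, Y69A2AR.36 and F07C6.5, exceeded 50%. The longest word found near the same position in all 11 U5 genes had 6 letters and lay near position -58. The 80 bp before the common start, from the RefSeq WBcel235 genome, are shown for the 5 dispersed genes on chromosome IV, because this is where the summits of the next paragraphs lie. Capitals mark the 7 bases at the place of the word.
F42C5.12, IV:7316653-7316732, plus strand: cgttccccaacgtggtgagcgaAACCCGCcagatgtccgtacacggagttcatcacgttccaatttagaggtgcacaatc
F07C6.5, IV:12795504-12795583, plus strand: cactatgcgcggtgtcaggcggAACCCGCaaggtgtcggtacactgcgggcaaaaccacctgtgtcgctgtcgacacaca
C53D6.12, IV:9001423-9001502, minus strand: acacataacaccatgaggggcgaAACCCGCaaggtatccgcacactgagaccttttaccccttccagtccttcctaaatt
Y69A2AR.36, IV:2655186-2655265, minus strand: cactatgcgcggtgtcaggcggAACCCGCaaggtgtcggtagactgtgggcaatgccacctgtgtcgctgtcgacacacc
C53B4.9, IV:8994668-8994747, plus strand: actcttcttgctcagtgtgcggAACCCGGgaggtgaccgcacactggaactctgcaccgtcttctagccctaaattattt
The letters AACCCG were present in all 11 genes. The 7 letters AACCCGC were present in 5 of 6 dispersed genes and 5 of 5 clustered genes, and C53B4.9 has AACCCGG in that place. The 8 letters AACCCGCA were the longest word searched and were found in 4 of 6 dispersed genes, lacking in F42C5.12 and C53B4.9, and in 3 of 5 clustered genes. The first base of the word lies between positions -59 and -57 in every gene. Y69A2AR.36 and F07C6.5 differ at 5 of these 80 bases, C42G, C47T, A54T, A55G and A80C, counted from 1 at the upstream end with the base of F07C6.5 first, and none of the 5 falls in the word.

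The word stands at the start of a longer stretch of partial agreement. In a gapless block of 28 columns that begins 4 bases before the word, the genes were lined up on AACCCG. The columns of these letters therefore agree in all 11 genes by construction. Counting them, 9 columns held the same base in all 11 genes, the others being columns 1 to 3, and 16 held it in at least 10. Y69A2AR.36, F42C5.12 and F07C6.5 matched all 16 of these columns. C53D6.12 matched 15 with G17A, C53B4.9 matched 15 with C11G, and F32B5.9 matched 13, positions being counted from 1 at the start of the block and the commonest base standing first. The column of C11G, the last base of the 7-letter word, was the only one of the 28 at which C53B4.9 stood alone against 10 genes with the same base. Standing alone in this way was not particular to C53B4.9. It also held for F32B5.9 and C53D6.12 at the columns they did not match, and for the clustered genes F38E11.11 with G14A and ZK897.3 with C19A. Compared position by position from the common start, without moving any gene, at least 10 of the 11 genes held the same base at 7 of the 100 upstream positions, and 4 of these 7 lie at the commonest place of the 7-letter word.

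**Figure D1:**
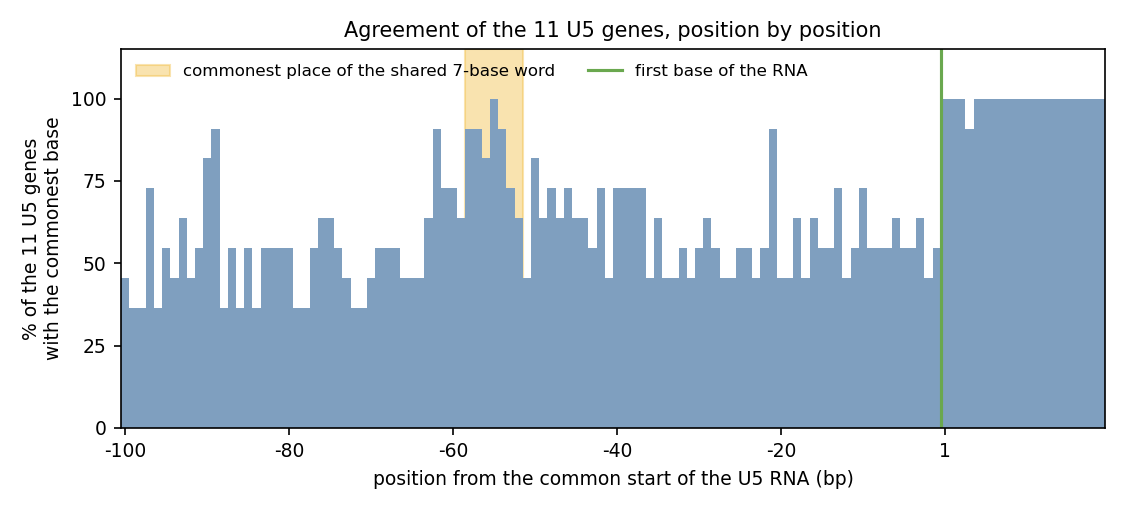
Share of the 11 U5 genes (y axis, percent) with the commonest base at each position from 100 bp upstream of the common start of the RNA to its base 20 (x axis, bp); the shaded band is the commonest place of the shared 7-base word, which is 1 bp nearer or farther in 3 genes. At least 90.9% of the genes agree at 4 of the 7 positions in the band and at 3 of the other upstream positions, and all agree over the first 20 bases of the RNA except at base 4.

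The word was searched on both strands in the 100 bp upstream of other genes, as a description of how common these letters are there. AACCCGC occurred upstream of 58 of 19971 protein-coding genes (0.290%), 2 of 612 tRNA genes (0.327%) and 19 of 346 snoRNA genes (5.49%). Among other snRNA genes it occurred upstream of 14 of 88 (15.9%), with 7 of 12 U1 genes, 1 of 5 U4 genes, 2 of 22 U6 genes, 2 of 10 SmY genes and none of 19 U2 genes. The remaining holders were snRNA genes with no assigned family. Of these 88, 12 of the 54 with an IDR summit of SNPC-4 (22.2%) and 2 of the 34 without one (5.88%) held it. The 54 count 2 summits more than once, since mir-1831 shares that of sup-39 and T27E4.22 that of T27E4.12. Families also differ in the share with a summit, 83.3% of U1 and 50% of U6 genes, and their part in this difference was not tested. AACCCGC also occurred upstream of 9 of 18 SL2 spliced leader genes, which are not among the 88. The 8-letter word occurred upstream of 20 of 19971 protein-coding genes (0.100%). A match is a string of letters and says nothing by itself about binding.

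Each dispersed gene lies inside an intron of a protein-coding gene. Y69A2AR.36 (WBGene00194996) lies in a 492 bp intron of gfrl-1, on the same strand. F42C5.12 (WBGene00194997, IV:7316732-7316853) lies in a 454 bp intron of F42C5.9, a gene for a PH domain protein, on the opposite strand. C53B4.9 (WBGene00014293) lies in a 740 bp intron of mltn-12, C53D6.12 (WBGene00045116, IV:9001297-9001422) in a 417 bp intron of C53D6.8, and F07C6.5 (WBGene00014306) in a 523 bp intron of pin-2, which encodes a LIM domain protein, each on the strand of its host. In all, 4 of the 6 share the strand of the host. Among the clustered genes 4 of 5 are intronic, and among all 99 snRNA genes 48 are (48.5%). An annotated noncoding RNA model covers 4 of the 6 on the opposite strand, as it does 4 of the 5 clustered genes, and ChIP-seq carries no strand by which to separate the pair.

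The genes also differ in how far they stand from one another. C53B4.9 and C53D6.12 have different clone names and yet their 5′ ends are 6674 bp apart, on opposite strands, and F07C6.5 lies 8446 bp from the clustered gene ZK897.4. F32B5.9 (WBGene00044927, I:2688947-2689069, plus strand) is the most isolated and lies in a 1112 bp intron of cpz-1, which encodes a cathepsin Z, on the opposite strand and 16 bp from an exon of that gene.

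All 6 dispersed genes had a summit of SNPC-4 within 250 bp of the 5′ end in the IDR list. This list passed the irreproducible discovery rate (IDR) filter, which compares the ranks of regions between lists. Passing it does not show that a region ranked alike in both replicates. C53B4.9, which passed, ranked 2507 among candidates in replicate 1 and 7253 in replicate 2. A summit in the IDR list was also present at all 5 clustered genes, at 65 of 99 snRNA genes (65.7%) and at 2062 of 46890 genes of all kinds (4.4%). The summits of 5 of the 6 were among the strongest 200 of the 2950 in the list, as were those of all 5 clustered genes. C53B4.9 was the exception, at rank 2828. The limit of 200 falls on Y69A2AR.36 itself, which had rank 200 there and ranks 211 and 201 among the candidates of replicates 1 and 2. By relative signal, defined below, Y69A2AR.36 held only place 36 of the 65 snRNA genes with an IDR summit. Summits of this strength were thus not particular to U5 genes.

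The strength of each summit is the signal value that the authors' peak caller gave it, which depends on depth. It was therefore divided by the median signal of the same replicate at IDR peaks, 69.6 in replicate 1 and 77.0 in replicate 2, and this relative signal is 1 for a typical IDR peak. Read counts were not among the files used here, so the depth and the counting error behind a value are unknown.

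F32B5.9 had the strongest summit of the dispersed genes, with a signal of 1643 in replicate 1 and 2464 in replicate 2, rank 39 of 30000 candidates in each. Its relative signal was 23.6 and 32, with a mean of 27.8 ± 5.93 (SD, n = 2). It thus stood near the top of both lists, next to the clustered gene F38E11.10 at 33.4 ± 6.96, and the replicate ranges of these genes overlapped.

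F42C5.12 followed with a signal of 711 in replicate 1 and 972 in replicate 2. Its relative signal was 10.2 and 12.6, with a mean of 11.4 ± 1.70 (SD, n = 2). Both of its values lay below both of F32B5.9 and above both of every other dispersed gene.

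F07C6.5 had a signal of 552 in replicate 1 and 557 in replicate 2, and a relative signal of 7.93 and 7.23 (mean 7.58 ± 0.493, SD, n = 2). It was the only dispersed gene apart from C53B4.9 with a lower relative signal in replicate 2 than in replicate 1. Its replicate range overlapped that of ZK897.3, whose mean was 7.49 ± 0.676, and of ZK897.2, whose mean was 8.47 ± 0.776. Over the 100 bp upstream F07C6.5 was 88% identical to ZK897.2, 83% identical to ZK897.4 and 51% identical to ZK897.3. Over the 50 bp nearest the RNA it was 86% identical to ZK897.2 and 96% identical to ZK897.4. Reads of F07C6.5 may therefore be shared with other copies, and with which ones was not tested. Of the 50-base words upstream of F07C6.5, within 250 bp, 94.5% occur once in the genome. Of those within its RNA, none does. The upstream share was also 94.5% for ZK897.4 and was 100% for ZK897.2.

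C53D6.12 had a signal of 388 in replicate 1 and 507 in replicate 2, and a relative signal of 5.57 and 6.58 (mean 6.08 ± 0.715, SD, n = 2). This range overlapped that of the clustered gene F38E11.11 at 5.50 ± 0.542. Y69A2AR.36 had a signal of 288 and 332 and a relative signal of 4.14 and 4.31 (mean 4.23 ± 0.122, SD, n = 2). It lay below F07C6.5 in both replicates although the sequences of these genes over the 100 bp upstream were 92% identical.

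C53B4.9 was apart from the rest, with a signal of 50.5 in replicate 1 and 27.8 in replicate 2. Its relative signal was 0.726 and 0.362, with a mean of 0.544 ± 0.258 (SD, n = 2), and it was the only dispersed gene below the typical IDR peak. Both values lay below every value of the other 10 U5 genes. In replicate 1 it ranked 2507 among candidates, and 735 of 2878 IDR peaks found in that replicate (25.5%) were at or below its signal. In replicate 2 it ranked 7253 with a -log10 q-value of 1.12, against a ceiling of 3.71 that the other 10 U5 genes reached, and 29 of 2888 IDR peaks (1.00%) were at or below it. In the IDR list its signal was 87.2, close to the lowest signal of that list, 84.4. The relative signal of F32B5.9 was 51.1-fold higher than that of C53B4.9, and that of Y69A2AR.36, the next lowest, was 7.77-fold higher.

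The order F32B5.9, F42C5.12, F07C6.5, C53D6.12, Y69A2AR.36 and C53B4.9 was the same in replicate 1, in replicate 2 and in the pooled list, and the replicate ranges of neighbours in it did not overlap. Transcription and RNA levels of the 6 genes were not measured. Of the 50-base words upstream of F32B5.9, Y69A2AR.36, F42C5.12, C53B4.9 and C53D6.12, within 250 bp, 100% occur once in the genome. Within the RNA this share was 87.7% for C53B4.9 and between 45.2 and 68.5% for the other 4. With words of 36 bases the upstream share was 94.4% for Y69A2AR.36, 81.4% for F07C6.5 and 100% for the other 4 dispersed genes, and within the RNA it was 0% for F07C6.5 and 37.9 to 71.3% for the other 5. The part of sequence copies in the order of the signals was not tested, and neither the read length nor the treatment of reads that map to several places is known from the files.

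**Figure D2:**
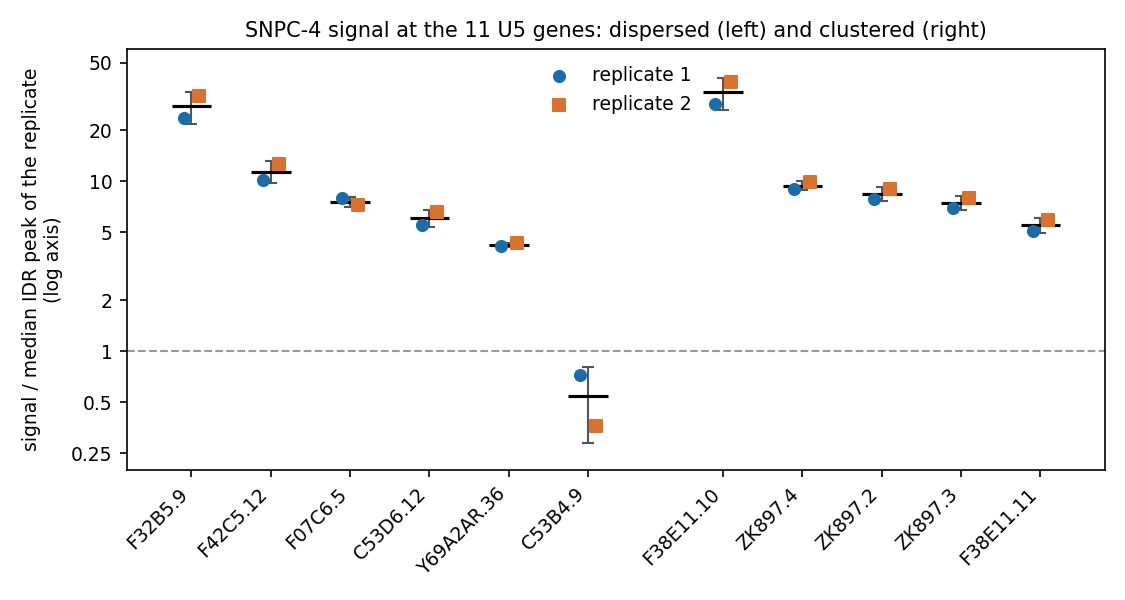
Relative signal of SNPC-4 (y axis, log scale, signal over the median IDR peak of the replicate) at the 6 dispersed U5 genes on the left and the 5 clustered genes on the right; points are replicates, horizontal bars are means and error bars are SD (n = 2). C53B4.9, at 0.726 and 0.362, lies below the dashed line of the median IDR peak, and the other 10 genes lie above 4.

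Over the 6 dispersed genes the median relative signal was 6.83 ± 0.111 (SD over replicates, n = 2), against 8.47 ± 0.776 over the 5 clustered genes and 4.78 ± 0.272 over the 65 snRNA genes with an IDR summit. The dispersed genes spanned 0.544 to 27.8 and the clustered genes 5.50 to 33.4. Without C53B4.9, left out after its values were seen, the other 5 dispersed genes had a median of 7.58 ± 0.493 and spanned a 6.58-fold range, against a 6.07-fold range over the clustered genes. For the other families the median covers only the genes with an IDR summit. It was 11.5 ± 1.06 over 10 of 12 U1 genes, 9.47 ± 0.382 over 11 of 22 U6 genes and 3.58 ± 0.364 over 5 of 5 U4 genes. It was 3.38 ± 0.125 over 15 of 19 U2 genes and 2.86 ± 0.00650 over 9 of 10 genes of SmY, a nematode RNA of trans-splicing. Among the 65 snRNA genes ordered by relative signal, F32B5.9 held place 7, F42C5.12 place 16, F07C6.5 place 24, C53D6.12 place 29, Y69A2AR.36 place 36 and C53B4.9 the last, 65. Genes are not replicates of one another, so these medians are descriptions without a test.

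**Figure D3:**
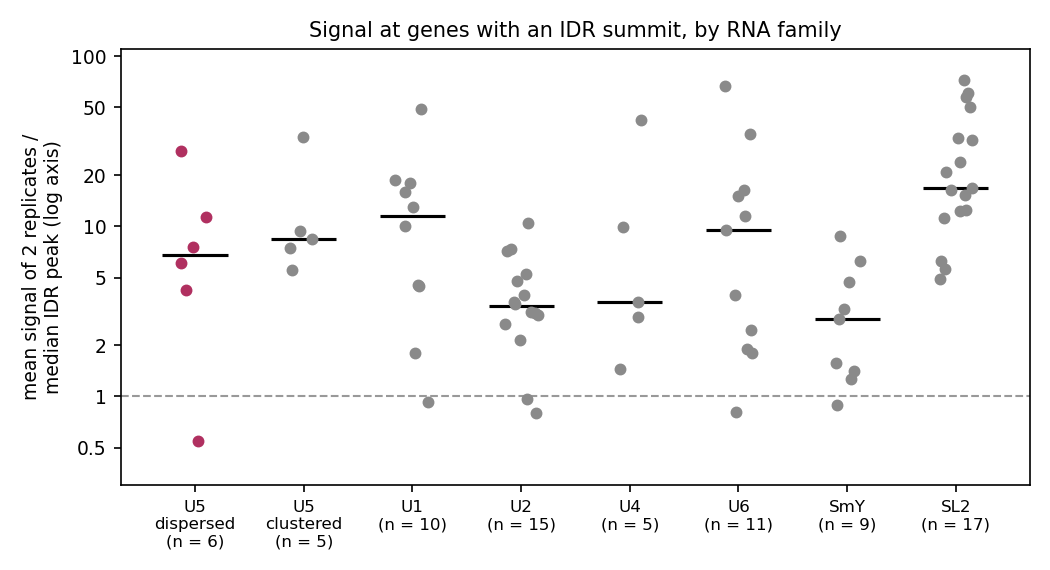
Mean relative signal of both replicates (y axis, log scale) at each gene with an IDR summit, by RNA family, with the dispersed U5 genes at the left; horizontal bars are the family medians and n is the number of genes. The dispersed genes lie between 0.544 and 27.8, and C53B4.9 is the lowest point drawn.

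The summit lay upstream of the annotated 5′ end at all 6 dispersed genes and in all 4 lists (IDR, pooled, replicate 1 and replicate 2). In the IDR list it was at -43 bp for F32B5.9, -38 bp for F42C5.12, -50 bp for F07C6.5, -51 bp for C53D6.12, -31 bp for Y69A2AR.36 and -16 bp for C53B4.9. The median was -40.5 bp, against -49 bp for the clustered genes and -43 bp for all snRNA genes with a summit. C53B4.9 had the summit nearest to the RNA in the IDR list and in replicate 2, at -17 bp. In replicate 1 its summit, at -25 bp, lay within 1 bp of those of Y69A2AR.36 at -26 bp and F38E11.11 at -24 bp. The replicates placed the summit 1 bp apart at F32B5.9, 2 bp at F07C6.5 and 10 bp at F42C5.12, but 20 bp at C53D6.12 and 29 bp at Y69A2AR.36. For those last genes the replicate 1 summits, at -29 and -26 bp, were nearer to the start than the replicate 2 summits, at -49 and -55 bp.

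The summit was close to the shared word at most dispersed genes, but summits lay at a like place also in genes without it. The median position was -39 bp for the U2 genes with a summit, and none of the 19 U2 genes held AACCCGC. Whether the summit follows the word was not tested. From the middle of the word, the IDR summit lay 3 bp downstream at C53D6.12, 5 bp at F07C6.5, 10 bp at F32B5.9, 16 bp at F42C5.12 and 24 bp at Y69A2AR.36. It lay 39 bp downstream at C53B4.9, whose word departs in its last letter, and 1 to 21 bp downstream at the clustered genes. In replicate 1 C53B4.9 was not set apart, with its summit 30 bp downstream of the word, against 29 bp at Y69A2AR.36, 25 bp at C53D6.12 and 31 bp at the clustered gene F38E11.11, all of which have the 7 letters. In replicate 2 it was 38 bp at C53B4.9 and at most 16 bp at the other U5 genes. With 1 such gene, the difference in the word and the weak signal cannot be told apart from other features of that locus.

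A second summit past the 3′ end of the RNA was listed at 3 of the 6 dispersed genes, F32B5.9, F42C5.12 and F07C6.5, in each of the 4 lists. It was listed at 4 of the 5 clustered genes and, in the IDR list and within the same 250 bp of the 5′ end, at 15 of the 65 snRNA genes with a summit (23.1%). Those 15 include the U5 genes. Among bound genes of other families it was listed at 2 of 10 U1, 1 of 15 U2, 1 of 5 U4, 3 of 11 U6 and 0 of 9 SmY genes. The window leaves less room past the end of a longer RNA, as in U1 and U2, so these shares are not like for like. In the IDR list, where the position comes from the pooled reads, the second summit was at 187 bp from the 5′ end for F32B5.9. It was at 162 bp for F42C5.12 and 173 bp for F07C6.5. At these 3 genes the second summit lay 199 to 230 bp from the first over all lists. At F32B5.9 its signal was 22.4% of the upstream signal in replicate 1, where it lay at 154 bp, 15.9% in replicate 2, where it lay at 159 bp, and 8.73% in the IDR list. At F42C5.12 these shares were 36.8%, 25.5% and 26.4%. At F07C6.5 they were 57.8%, 70.4% and 54.1%, so the gene with the weakest upstream summit of these 3 had the largest share in each list. A 5′ end of the host gene lay 295 bp from the second summit for cpz-1, 209 bp for F42C5.9 and 138 bp for pin-2. Among the clustered genes with a second summit, a 5′ end of unc-31 lay 362 bp from it at ZK897.3 and 175 bp at ZK897.4. At F38E11.10 a 5′ end of hsp-12.3 lay 446 bp from it. At ZK897.2, which also had a second summit in all 4 lists, the nearest 5′ end of the host unc-31 was 1100 bp from the 5′ end of the U5 gene. At the dispersed genes without a second summit this last distance was 8818 bp for Y69A2AR.36, 1662 bp for C53B4.9 and 1314 bp for C53D6.12. For the clustered gene F38E11.11, also without one, it was 2845 bp. Of the 19971 protein-coding genes, 1487 (7.45%) had an IDR summit within 500 bp of a 5′ end. Whether the second summit belongs to the U5 gene, to the host or to the shape of the sequenced fragments was not tested.

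**Figure D4:**
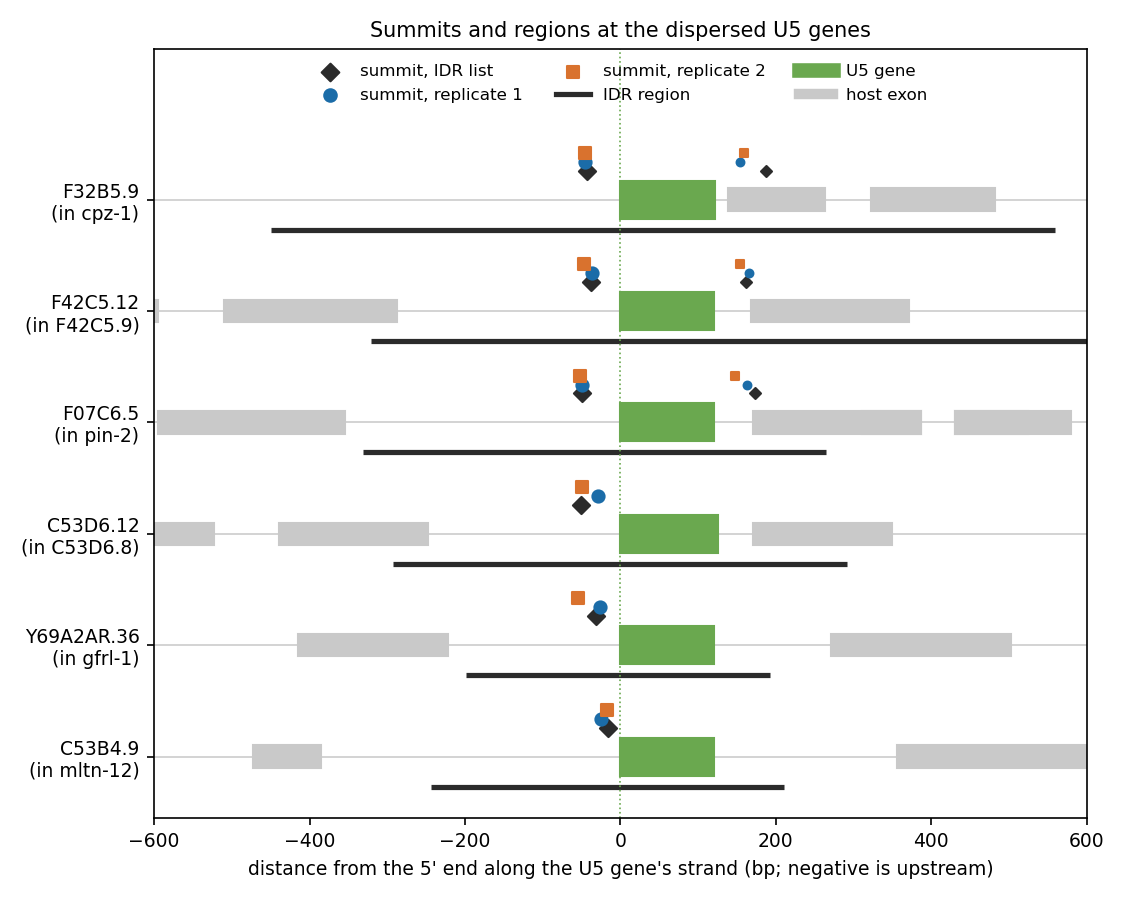
Position of the summits (x axis, bp from the 5′ end along the U5 gene's strand, negative upstream) at the dispersed U5 genes, strongest at the top; large symbols are the strongest summit of each list, small symbols the further ones, green boxes the U5 gene, grey boxes exons of the host and black lines the IDR region. Upstream summits fall between -55 and -16 bp at all 6 genes, and the upper 3 genes have a second summit past the RNA.

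Other SNPC-4 peaks around these genes are given as a description, since no such count over other genes was made to set beside them. Within 5 kb of the 5′ end there was no other IDR summit at F32B5.9, C53B4.9, C53D6.12 or F07C6.5, leaving aside the gene's own second summit. There was 1 at Y69A2AR.36 and there were 4 at F42C5.12. The nearest other IDR summit was 20981 bp from F32B5.9, 8299 bp from F07C6.5, where it was the second summit of ZK897.4, 175 bp from a 5′ end of unc-31, and 1555 bp from F42C5.12. The nearest to C53B4.9 was that of C53D6.12 at 6725 bp, so the weakest U5 summit and one with an 11.2-fold higher relative signal were neighbours.

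The genes of the proteins that work with U5 RNA were described with the same lists. Of 16 genes for U5 proteins, Sm proteins and the Sm assembly factors, 7 had an IDR summit within 500 bp of a 5′ end (43.8%), against the 7.45% of protein-coding genes given above. The strongest, at snr-4, which encodes an Sm protein, had a relative signal of 41.95 ± 5.59 (SD, n = 2), and this summit is that of the U4 gene C52E4.8, which lies near it. The next were smn-1, which encodes the survival motor neuron protein of Sm ring assembly, at 1.74 ± 0.0446, and snrp-40.1, a U5 protein gene, at 1.15 ± 0.0203. At prp-8 the relative signal was 0.899 ± 0.0880. The median over the 7 genes was 0.959. Apart from snr-4 each had a mean below those of the 5 stronger dispersed U5 genes.

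At the tagged gene itself, snpc-4, the IDR list held a summit at -237 bp with rank 1404, and the strongest candidate within 500 bp had a relative signal of 0.144 in replicate 1 and 1.32 in replicate 2. The gene unc-119 had no IDR summit within 500 bp.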

How the data were processed

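ChIP-seq of SNPC-4-GFP in 1 group of 2 biological replicates, so numbered in the labels, was analysed from the deposited ce11 peak lists: the IDR list (2950 summits) and candidate lists of the pooled reads and of each replicate (30000 summits each). The ce10 lists were not used. Each entry holds the signal and the -log10 q-value deposited by the authors and, as the other unit, the summit offset in the region deposited by the authors. Per the deposited file listing, the IDR list was made from the candidate lists, with a control that was not analysed here. The aligner, the peak caller, the IDR threshold and the number of reads were not given in the sources used here. Depth, and the precision that follows from it, is therefore unknown. A summit was given to an RNA gene within 250 bp of its 5′ end and to a protein-coding gene within 500 bp. Where several lay there the strongest was used. Signals were divided by the replicate's median at nuclear IDR peaks (2878 matched in replicate 1, 2888 in replicate 2). U5 genes were recognised by the conserved loop I element. The common start is the first RNA base once the genes are aligned on it. The sequences of the RNAs are not reported here. Values are mean ± SD (n = 2), and no test was run. Named genes are the 6 members, their hosts, the clustered genes, the 3 strongest of the pathway list, snpc-4 and unc-119, with prp-8 added after its value was seen. The members and lists were chosen with earlier results of these data known. The 7-letter word, and leaving out C53B4.9, were chosen after seeing the data. Alternatives were other distances, stricter and single-replicate lists, other scalings and other choices of summit. Scripts ran in Python 3.11.15 with pandas 2.3.3, numpy 2.4.6 and matplotlib 3.10.9 and were tested on simulated data.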

Additional observations from a re-analysis of the deposited data

How the results depend on the processing

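The number of dispersed genes with a summit was 6 at distances of 100, 500 and 1000 bp, by any overlap with the region and among the strongest pooled summits, and 5 among the 1475 strongest IDR summits. Using the strongest summits of 1 replicate in place of the IDR list it was between 5 (without replicate 1) and 6 (without replicate 2). The gene lost in both cases was C53B4.9. The median relative signal of 6.83 moved to 29.4 when scaled by the median of the candidate list, which lies lower, to 9.61 as a mean over genes, to 6.95 with the pooled signal, to 27.8 when genes near another gene were left out, where only F32B5.9 remained, and to 7.58 without C53B4.9, an alternative chosen after the data were seen. Leaving out a replicate gave 6.75 to 6.91. The median summit position of -40.5 bp ranged from -48 to -33 bp over the same omissions and was -43 bp without C53B4.9. The promoter word was found in 4 dispersed genes also anywhere in 250 bp upstream, and in 5 with 7 letters, likewise chosen later. No paired analysis was possible because there is only 1 group. With 2 replicates the SDs are themselves imprecise, the depth is unknown, and reads from U5 copies that are alike may be split between them.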
